A study of Mus musculus with 2 samples.

Results

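Granzymes and perforin are the proteins with which cytotoxic lymphocytes kill. Their genes were followed here through the T cells and natural killer (NK) cells of MC38 tumors, a mouse colon cancer line, grown in Lmo7+/+ and Lmo7-/- hosts. The members were found by gene name, as the rows of Gzma, Gzmb, Gzmc, Gzmd, Gzme, Gzmf, Gzmg, Gzmk, Gzmm and Prf1, which are 10 of the 32285 genes counted. The data were 2 droplet-based single-cell RNA-seq libraries made from live sorted cells of dissociated tumors, 1 per host genotype. Hosts were young adult female mice of the C57BL/6 background, either wild type or carrying a germline deletion of Lmo7, a gene for a LIM domain protein, and tumor cells were injected under the skin. The same tumor line, with its own Lmo7 intact, was used in both, so the deletion was limited to host cells. The number of mice behind each library is not given in the sources used here.

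Perforin, the product of Prf1, forms pores in the membrane of a target cell, and granzymes are serine proteases that enter through them. Granzyme B cleaves caspases and their substrates and so starts apoptosis, granzyme A and granzyme K have trypsin-like activity, and granzyme M is best known from NK cells. Rodents carry further granzyme genes beside Gzmb, among them Gzmc, Gzmd, Gzme, Gzmf and Gzmg, which activated cytotoxic T cells and NK cells can transcribe.

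On the GRCm38 assembly, Prf1 lies at chr10:61297833-61304680 and Gzmm at chr10:79689020-79695261, both on the plus strand. Gzma (chr13:113093825-113100981) and Gzmk (chr13:113171608-113225908) lie on the minus strand of another chromosome. The remaining 6 members stand in 1 row of 144.6 kb on the minus strand of chromosome 14, in the order Gzme (chr14:56117626-56120625), Gzmd (chr14:56129556-56132608), Gzmg (chr14:56156582-56159579), Gzmf (chr14:56205263-56211417), Gzmc (chr14:56231441-56234656) and Gzmb (chr14:56258838-56262260). The stretches just before their start sites are printed below from the RefSeq promoter windows of the GRCm38.p6 assembly, because those of 5 of these genes are near copies of each other. Each runs 5′ to 3′ on the strand of the gene, from -200 to 9 relative to the start site. Capitals mark TGTGGT, the core motif of RUNX factors, on either strand (ACCACA on the opposite strand), TGACGTCA, the cyclic AMP response element, and TGANTCA, the AP-1 motif.
Gzme: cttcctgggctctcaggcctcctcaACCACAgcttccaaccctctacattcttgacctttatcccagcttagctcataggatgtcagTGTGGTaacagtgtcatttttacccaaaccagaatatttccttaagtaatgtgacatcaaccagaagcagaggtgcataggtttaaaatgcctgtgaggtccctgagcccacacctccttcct
Gzmd: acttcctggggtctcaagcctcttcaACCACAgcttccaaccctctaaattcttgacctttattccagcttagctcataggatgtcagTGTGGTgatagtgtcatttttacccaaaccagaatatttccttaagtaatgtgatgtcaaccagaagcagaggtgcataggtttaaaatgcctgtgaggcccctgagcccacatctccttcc
Gzmg: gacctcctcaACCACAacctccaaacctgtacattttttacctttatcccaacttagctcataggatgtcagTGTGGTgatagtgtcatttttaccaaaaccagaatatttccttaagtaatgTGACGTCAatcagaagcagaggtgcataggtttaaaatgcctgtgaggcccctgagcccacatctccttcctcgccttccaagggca
Gzmf: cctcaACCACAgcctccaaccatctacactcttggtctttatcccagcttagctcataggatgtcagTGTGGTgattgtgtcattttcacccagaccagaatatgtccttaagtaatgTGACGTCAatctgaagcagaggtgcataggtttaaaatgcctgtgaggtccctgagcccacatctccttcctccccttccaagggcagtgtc
Gzmc: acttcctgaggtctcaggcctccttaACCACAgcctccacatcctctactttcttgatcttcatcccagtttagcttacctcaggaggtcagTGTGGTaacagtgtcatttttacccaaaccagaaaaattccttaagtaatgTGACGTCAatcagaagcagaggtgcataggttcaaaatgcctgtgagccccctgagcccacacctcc
Gzmb: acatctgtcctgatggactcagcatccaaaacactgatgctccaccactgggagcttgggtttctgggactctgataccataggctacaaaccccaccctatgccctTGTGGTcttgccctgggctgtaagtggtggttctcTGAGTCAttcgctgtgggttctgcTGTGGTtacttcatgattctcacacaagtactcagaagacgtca

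The windows shown are chr14:56120616-56120825 for Gzme, chr14:56132584-56132793 for Gzmd, chr14:56159570-56159779 for Gzmg, chr14:56211398-56211607 for Gzmf, chr14:56234648-56234857 for Gzmc and chr14:56262325-56262534 for Gzmb. Over the aligned bases of the whole windows, gaps left out, the 10 pairs among Gzmc, Gzmd, Gzme, Gzmf and Gzmg were 86.1% to 94.0% identical, with a median of 88.4%. The 35 other pairs of members were 55.7% to 66.1% identical in this way, with a median of 61.6%. Over the full window length the values were 79.7% to 93.7% for the former pairs and 39.0% to 54.7% for the others. TGTGGT was found in the windows of 9 of the 10 members, Gzmk being the exception, and in 16.8% of all 32851 promoter windows of the same length. TGACGTCA was found in Gzmc, Gzmf and Gzmg (3 of 10 members, 1.79% of all windows) and TGANTCA in Gzmb (1 of 10 members, 7.81% of all windows). A further motif, AGGTGTGA of T-box factors, was found in none of the 10 members and in 1.28% of all windows. These motifs do not overlap one another in the members, and a match is a string of letters, not a measured binding site. The last 500 bases of the Gzmd and Gzme transcripts were 96.5% identical over the aligned part, so that reads of these genes may have been split or lost in counting, and the sum of Gzmc, Gzmd, Gzme, Gzmf and Gzmg is given beside the single genes.

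The deposited matrices held 16208 barcodes in the Lmo7+/+ library and 15163 in the other, both above the roughly 10000 sorted cells named in the labels, with 98582479 and 80648345 unique molecular identifiers (UMIs, each 1 captured transcript). After filtering, 13542 and 11860 cells remained at median depths of 4535.5 and 4304.5 UMIs. A set of 279 barcodes occurred in both libraries, and 26 of the lymphocytes kept carried such a barcode. The deletion itself was not detectable. Lmo7 gave 10 UMIs in macrophages of the Lmo7+/+ library (0.485 counts per 1000000 UMIs, CPM) and 14 in those of the other (0.667 CPM), and 2 and 1 in lymphocytes. Endothelial cells, host cells with more Lmo7, gave 18 and 12 UMIs (36.4 and 29.2 CPM). Their log2 ratio of the second library over the first was -0.32 (-1.51 to 0.81). Why Lmo7 RNA was still counted in host cells was not tested. The second library is therefore called the library labelled Lmo7-/- throughout. With 1 library per genotype nothing could be tested between genotypes: all intervals are exact 95% intervals for counting error only, cells of 1 library are not replicates, and a difference between the libraries cannot be told apart from a difference between the individual tumors.

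Lymphocytes were clustered without the 10 members and named from marker genes. CD8 T-like cells numbered 273 in the Lmo7+/+ library and 432 in the library labelled Lmo7-/-, NK-like cells 77 and 50, regulatory T (Treg)-like cells 65 and 77, CD4 T-like cells 22 and 28, and gamma delta T-like cells 10 and 2. The classes were named by limits on some of these markers, so the levels of those markers there follow from the naming. Over both libraries, Cd8a stood at 1214 CPM in CD8 T-like cells, and Cd4 at 1218 in CD4 T-like cells, where Cd8a was 0. Foxp3, which defines Treg cells, stood at 755 CPM in Treg-like cells, Trdc at 1995 in gamma delta T-like cells, and Ncr1, an NK cell receptor gene, at 225 in NK-like cells, where Cd3e stood at 50.9. Of the gamma delta T list Il23r was at 0 in every class, and of the CD4 T list Cd40lg reached only 7.66 CPM in CD4 T-like cells. Of the CD4 T list, Cd4, Tnfsf8 and Cd40lg were higher in CD4 T-like than in Treg-like cells. Icos (1555 and 2815 CPM), Il7r (176 and 424), Cd5 (299 and 331), Trac (1540 and 1864) and Cd3e (689 and 707) were higher in Treg-like cells. Another group, led by S1pr1 and expressing Tcf7, is called S1pr1 Tcf7 T cells (67 and 74 cells). Its limits on S1pr1 and Tcf7 were applied before those for CD8 T-like cells. With Cd8a at 618, Cd8b1 at 522 and Cd4 at 133 CPM, it would otherwise have been named CD8 T-like. Droplets with RNA of other cells as well as T cells were set apart as mixed (150 and 192).

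Cytotoxic genes were divided among the lymphocytes rather than shared evenly. Levels are given in CPM of all UMIs of a class, on a scale that counts each transcript once and is not divided by its length. Summed over both libraries, NK-like cells held the highest level of Gzma, Gzmb, Gzmc, Gzmd, Gzme and Prf1 among the 5 named classes, and CD8 T-like cells that of Gzmf, Gzmg and Gzmk. The S1pr1 Tcf7 T cells, which are not among the 5, held more Gzmk (148 and 107 CPM) than CD8 T-like cells (53.5 and 32.6 CPM). The order also depended on the library. In the library labelled Lmo7-/- alone, Gzmb was highest in Treg-like cells (2528 CPM, against 2453 in CD8 T-like and 1778 in NK-like cells), Prf1 in CD8 T-like cells (586 against 503 CPM in NK-like cells) and Gzmg in NK-like cells (46.5 against 43.5 CPM). That Gzmg value of NK-like cells came from 5 UMIs in 1 cell, with an interval of 15.1 to 109 CPM. Some of these orders rested on a few cells: with the mean over cells in place of the sum, Gzmb was highest in Treg-like and Gzme in CD8 T-like cells, and without the highest cell Gzmd and Gzme were highest in CD8 T-like cells. Gzmm was next to absent, with 0 UMIs in CD8 T-like, Treg-like, CD4 T-like, gamma delta T-like and NK-like cells of either library and 1 UMI in the S1pr1 Tcf7 T cells of each. For Gzmm the limit of 3 counts was 3.34 CPM in CD8 T-like cells and 17.9 CPM in NK-like cells of the Lmo7+/+ library, so a level below these could not have been seen. Between 76.6% and 100% of the UMIs of the 9 other members lay in the lymphocyte classes of each library.

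**Figure D1:**
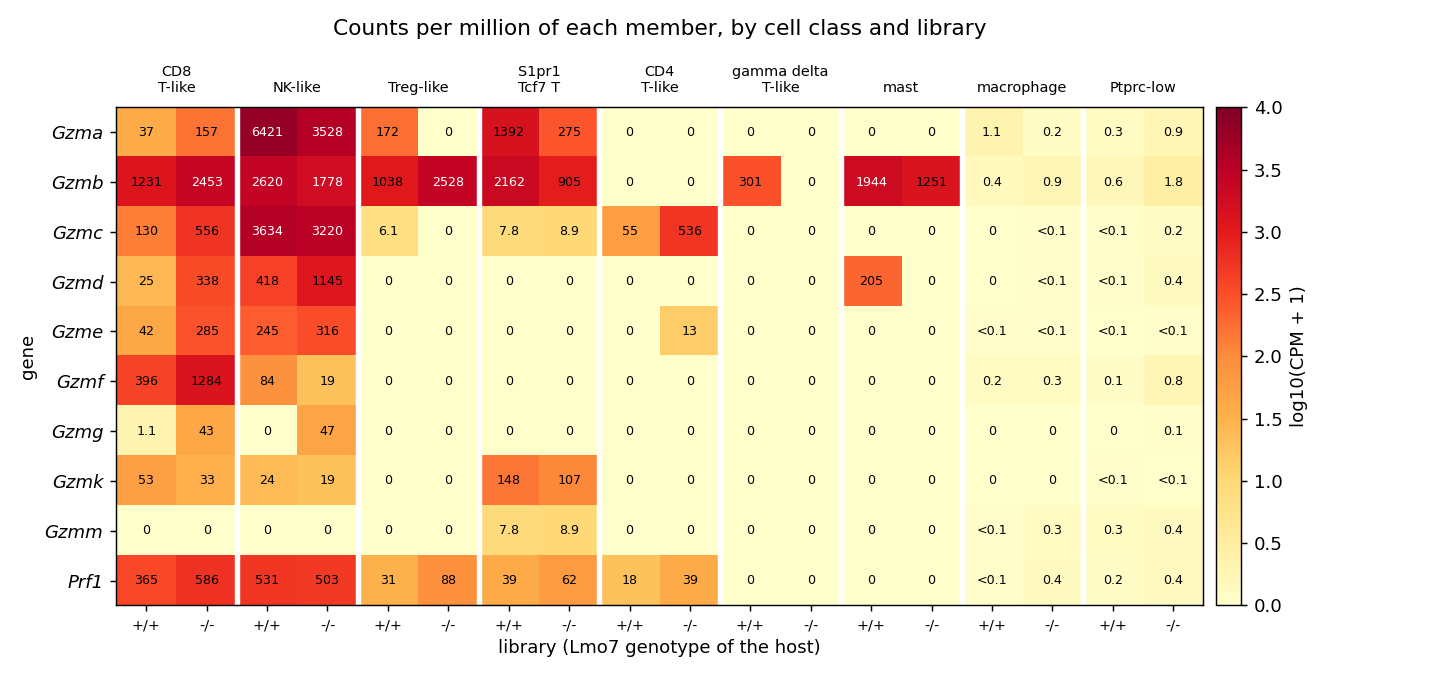
Heat map of the level of each of the 10 members (rows, in CPM, printed in each field) in 9 cell classes (columns), with the Lmo7+/+ library and the library labelled Lmo7-/- side by side and colour on a log10(CPM + 1) scale. In NK-like cells the highest field is Gzma (6421 and 3528), in CD8 T-like cells it is Gzmb (1231 and 2453), followed by Gzmf, in Treg-like cells Gzmb (1038 and 2528), and macrophages and Ptprc-low cells are near 0 in every row.

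Prf1, which opens the way for the granzymes, was shared by CD8 T-like and NK-like cells. It gave 328 UMIs in CD8 T-like cells of the Lmo7+/+ library (365 CPM, interval 327 to 407) and 809 in the library labelled Lmo7-/- (586 CPM, 546 to 628). The intervals did not overlap, and the log2 ratio of the second library over the first was 0.68 (0.49 to 0.87). In NK-like cells the level was 531 CPM (427 to 654) and 503 CPM (378 to 656), and the log2 ratio, -0.08 (-0.60 to 0.42), spanned 0, so the libraries were not distinguishable there. Prf1 therefore stood higher in NK-like than in CD8 T-like cells of the Lmo7+/+ library, by 0.54 on the log2 scale (0.19 to 0.88), while in the other library the difference was -0.22 (-0.65 to 0.18). Treg-like cells held 5 and 17 Prf1 UMIs (30.7 and 87.9 CPM), of which 9 of the 17 came from 1 cell.

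Gzmb, the most abundant granzyme transcript of CD8 T-like cells, gave 1105 UMIs in the Lmo7+/+ library (1231 CPM, 1160 to 1306) and 3385 in the library labelled Lmo7-/- (2453 CPM, 2371 to 2537). The log2 ratio was 0.99 (0.90 to 1.09). In the Lmo7+/+ library 204 of the 1105 UMIs were in 1 cell, and without the highest cell of each library the log2 ratio was 1.20. Treg-like cells carried about as much Gzmb per UMI as CD8 T-like cells: 1038 CPM (887 to 1207) and 2528 CPM (2309 to 2762), with a log2 ratio between the libraries of 1.28 (1.03 to 1.55). NK-like cells went the other way, at 2620 CPM (2380 to 2877) and 1778 CPM (1535 to 2049), and their log2 ratio was -0.56 (-0.81 to -0.31). The order of these classes differed between the libraries: in Lmo7+/+, NK-like cells lay above CD8 T-like cells by 1.09 on the log2 scale (0.93 to 1.25), and in the library labelled Lmo7-/- below them by a log2 ratio of -0.46 (-0.68 to -0.25). Treg-like and CD8 T-like cells differed by -0.25 (-0.49 to -0.01) in the first library and by 0.04 (-0.10 to 0.18) in the second.

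The neighbours of Gzmb on chromosome 14 differed more than Gzmb did in CD8 T-like cells. Gzmf, the next most abundant granzyme there, stood at 396 CPM (355 UMIs) in the Lmo7+/+ library and at 1284 CPM (1772 UMIs) in the library labelled Lmo7-/-, and the log2 ratio was 1.70 (1.53 to 1.87). In the Lmo7+/+ library 160 of the 355 were in 1 cell, and without the highest cell of each library the log2 ratio was 2.44. Gzmc stood at 130 and 556 CPM (117 and 767 UMIs), with a log2 ratio of 2.09 (1.81 to 2.39). For Gzmd and Gzme, whose transcripts are nearly alike, the first library held few UMIs. Gzmd gave 22 and 467 UMIs (24.5 and 338 CPM, log2 ratio 3.79, 3.17 to 4.48). Gzme gave 38 and 394 UMIs (42.3 and 285 CPM, log2 ratio 2.75, 2.27 to 3.27), but 20 of the 38 were in 1 cell, and without the highest cell of each library the log2 ratio was 3.64. Gzmg was counted once in the Lmo7+/+ library and 60 times in the other, a log2 ratio of 5.29 whose interval, 2.75 to 10.6, is as wide as a single count makes it. Summed, the 5 genes gave 594 CPM (545 to 647) and 2507 CPM (2424 to 2592). Their log2 ratio was 2.08 (1.95 to 2.21), so that in the library labelled Lmo7-/- their sum was about level with Gzmb.

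Gzmk was the 1 measured member that was lower in CD8 T-like cells of the library labelled Lmo7-/-. It gave 48 UMIs in 32 cells of the Lmo7+/+ library (53.5 CPM, 39.4 to 70.9) and 45 UMIs in 38 cells of the other (32.6 CPM, 23.8 to 43.6), a log2 ratio of -0.71 (-1.33 to -0.10). No cell held more than 3 Gzmk UMIs, unlike the granzymes of chromosome 14. Gzma, at 36.8 and 157 CPM (33 and 217 UMIs), had a log2 ratio of 2.10 (1.56 to 2.67), but it rested on 6 and 13 cells, and 132 of the 217 UMIs were in 1 cell. Its direction turned with the way cells were grouped: the log2 ratio was -0.33 at the doubled clustering resolution, -0.30 with 20 principal components and -1.22 when cells were classed by their own marker UMIs, so no direction is given for Gzma in CD8 T-like cells.

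Of the 9 members with at least 20 counts in CD8 T-like cells, 8 were at least 1.5-fold higher in the library labelled Lmo7-/- (Gzma, Gzmb, Gzmc, Gzmd, Gzme, Gzmf, Gzmg and Prf1) and 1 was lower (Gzmk). For 7 of the 8 the direction held under every alternative that gave a value, and Gzma, which turned with the grouping of the cells, is the exception. Over all 8126 genes with that many counts, 5.72% were higher and 10.2% lower by this measure. The median log2 ratio was 2.09 over the members and -0.06 over all genes, 5% of which lay below -0.80 and 5% above 0.63. With at least 50 counts and a 2-fold difference, 27 of 5699 genes were higher, and 6 of them were members: Gzmc, Gzmd, Gzme, Gzmf, Gzmg and Gzma, the last with no settled direction. The same measure found 36 genes lower, none of them a member.

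**Figure D2:**
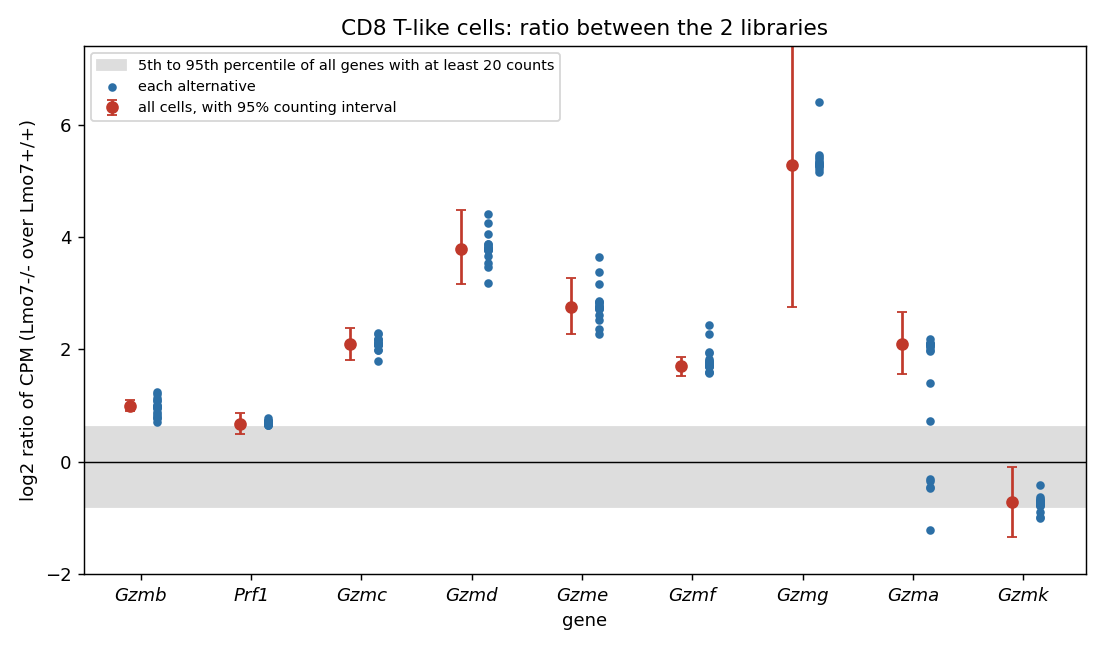
Log2 ratio (vertical axis, library labelled Lmo7-/- over Lmo7+/+) of each member with at least 20 UMIs in CD8 T-like cells, as red points with exact 95% counting intervals, and the values under other processing as blue points. The grey band holds the middle 90% of 8126 genes, from -0.80 to 0.63. Gzmb, Gzmc, Gzmd, Gzme, Gzmf, Gzmg and Prf1 lie above 0 in every setting, Gzmk (-0.71) below 0, and Gzma on both sides, while the interval of Gzmg runs past the axis.

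In CD8 T-like cells, markers of other cells differed less than the members did. The 9 macrophage markers summed to 237 CPM in CD8 T-like cells of the Lmo7+/+ library and to 183 CPM in the other, with 2 of 9 higher in the latter. No cell of any lymphocyte class held more than 1% of its UMIs in the macrophage genes C1qa, C1qb, C1qc, Lyz2 and Apoe. The most was 0.380% in CD8 T-like cells and 0.733% in NK-like cells. In macrophages these genes stood at only 2036, 4618, 5577, 3360 and 4097 CPM, so the percentages are not shares of macrophage RNA. The 10 NK cell markers summed to 535 and 559 CPM in CD8 T-like cells, against 4165 and 4486 CPM in NK-like cells, and Klra8 was 0 in CD8 T-like cells of both. Doublet calling marked 4 CD8 T-like cells in the first library and 0 in the second, and without them the log2 ratio of Gzmb was 0.99. In the smaller classes some marker sums differed more. NK cell markers summed to 178 and 46.5 CPM in Treg-like cells, macrophage markers to 517 and 183 CPM in CD4 T-like cells, and mast cell markers, of which 1 and 2 of 8 were detected, to 41.8 and 223 CPM in NK-like cells. Their part in the values of those classes was not tested.

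Differences in level went with differences in how many cells carried a transcript. After every cell was thinned to 1000 UMIs, 100 of 273 CD8 T-like cells of the Lmo7+/+ library held a Gzmb UMI (36.6%, 30.9% to 42.6%) and 234 of 432 of the other (54.2%, 49.3% to 58.9%). Without thinning the shares were 52.0% and 63.4%. Prf1 was found in 22.3% (17.5% to 27.8%) and 36.3% (31.8% to 41.1%) of thinned cells, or 44.0% and 57.2% unthinned. The chromosome 14 neighbours marked a minority: Gzmf was found in 5.86% and 18.8% of thinned cells, Gzmc in 3.66% and 13.7%, Gzmd in 1.47% and 7.41%, Gzme in 1.47% and 7.18%, and Gzmg in 0 of 273 cells, which by the limit of 3 counts allows a share of cells with a UMI of up to 1.10%, and in 0.926%. Unthinned, Gzmg was found in 0.366% and 2.31%. Gzmk, found in 5.50% (3.11% to 8.90%) and 3.94% (2.31% to 6.23%), had overlapping intervals. As background, Gzmb was found in 0.028% and 0.215% of thinned macrophages and in 0.120% and 0.179% of Ptprc-low cells, the class that holds most tumor cells, at unthinned median depths of 5359 and 4513 UMIs in macrophages against 2501 and 2577 in CD8 T-like cells.

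**Figure D3:**
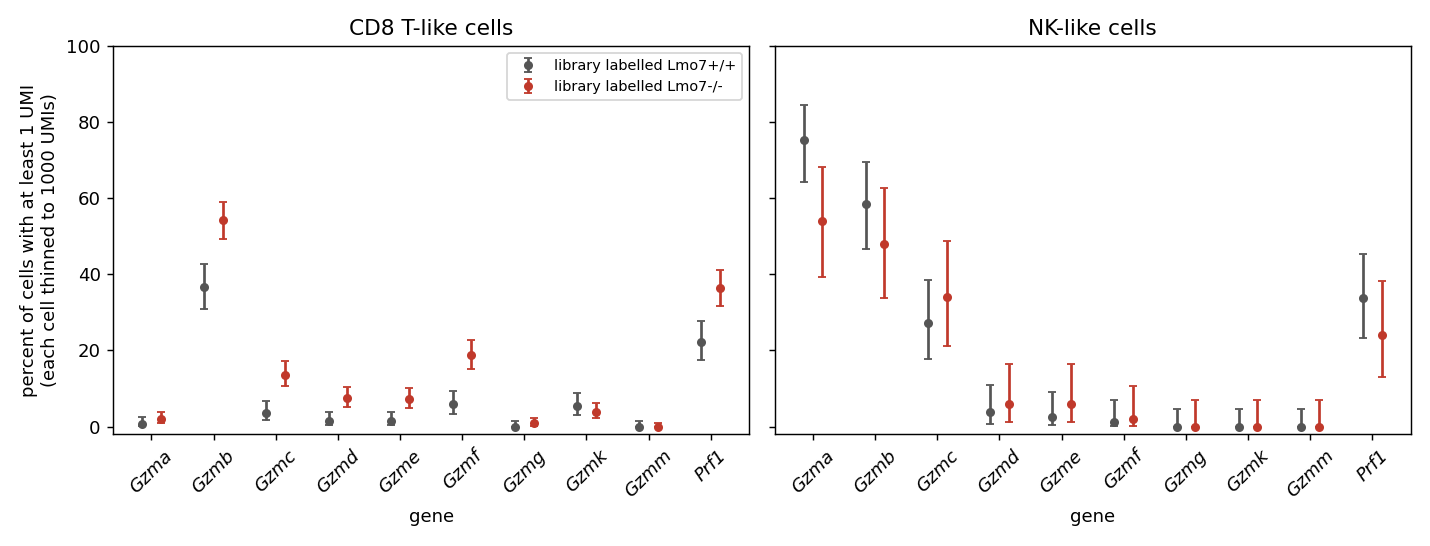
Percent of CD8 T-like cells (left) and NK-like cells (right) with at least 1 UMI of each member after thinning to 1000 UMIs per cell, with exact 95% binomial intervals, for the Lmo7+/+ library and the library labelled Lmo7-/-. In CD8 T-like cells Gzmb goes from 36.6% to 54.2% and Gzmf from 5.86% to 18.8%, while in NK-like cells Gzma goes from 75.3% to 54.0%.

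Within those cells the transcripts were unevenly spread. When CD8 T-like cells were ranked by Gzmb, the top 10% held 67.1% of its UMIs in the Lmo7+/+ library and 56.4% in the other, and for Prf1 the values were 59.8% and 48.9%. Gzmf was more concentrated, with 100% and 88.0% of its UMIs in the top 10% of cells, and single cells held up to 160 and 148 Gzmf UMIs. Several members were often found together. In thinned CD8 T-like cells, 15.4% (11.3% to 20.2%) of the Lmo7+/+ library and 40.3% (35.6% to 45.1%) of the other held 2 or more members, and 2.20% and 9.03% held 4 or more, up to 5 and 7 members in 1 cell. Of cells with Gzmb, 22.0% and 45.7% also held Prf1, against 22.5% and 25.3% of cells without Gzmb, so that the pair was not found together more often in the Lmo7+/+ library. Of cells with Gzmf, 68.8% (11 of 16) and 90.1% (73 of 81) also held Gzmb, which was found in 36.6% and 54.2% of all. Gzmf and Gzmk were found together in 0 and 3 cells. In the library labelled Lmo7-/-, Gzmk was found in 3.70% of cells with Gzmf and in 3.99% of those without. In the Lmo7+/+ library it was found in 0 of 16 and in 5.84%, too few cells to tell these shares apart.

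The make-up of the granzyme RNA differed with it. Of the 1719 granzyme UMIs of CD8 T-like cells in the Lmo7+/+ library, Gzmb made up 64.3% (62.0% to 66.6%), Gzmf 20.7%, Gzmc 6.81%, Gzmk 2.79%, Gzme 2.21% and Gzmd 1.28%. Of the 7107 in the library labelled Lmo7-/-, Gzmb made up 47.6% (46.5% to 48.8%), Gzmf 24.9%, Gzmc 10.8%, Gzmd 6.57%, Gzme 5.54% and Gzmk 0.633%. NK-like cells had another make-up, led by Gzma (47.8% and 35.0%), then Gzmc (27.0% and 32.0%) and Gzmb (19.5% and 17.7%). Treg-like cells held mostly a single granzyme, with Gzmb at 85.4% of 198 UMIs and 100% of 489.

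**Figure D4:**
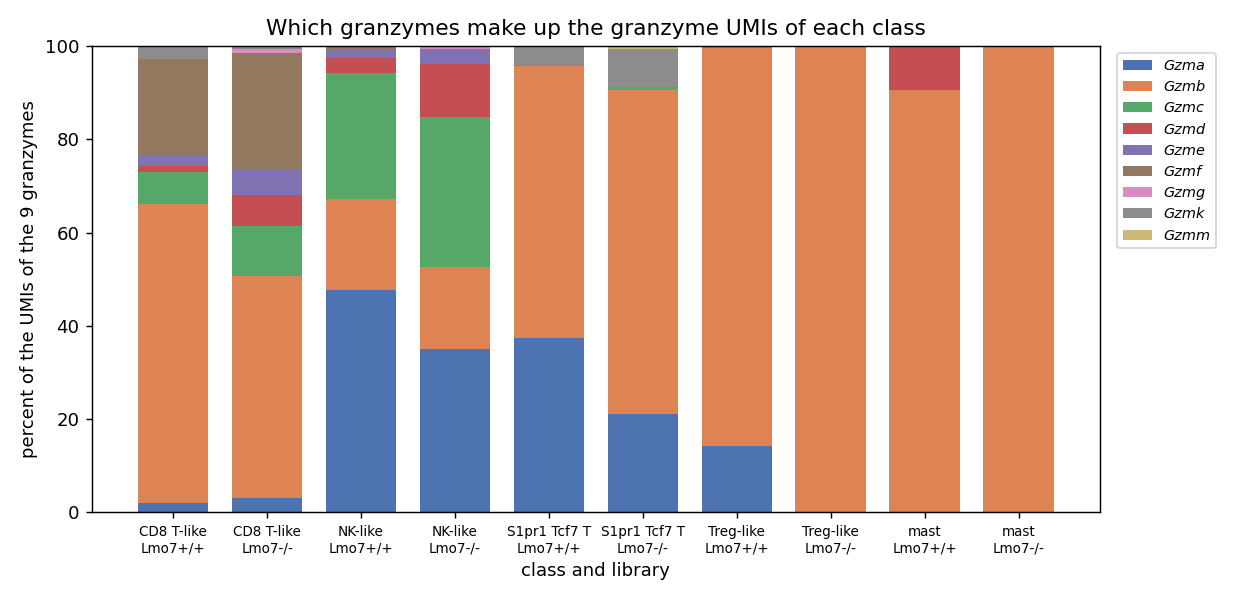
Stacked bars of the percent of granzyme UMIs taken by each granzyme, for 4 lymphocyte classes and mast cells in both libraries, with each bar adding to 100%. Gzmb takes 64.3% and 47.6% of the CD8 T-like bars, NK-like bars are led by Gzma, and Gzmb takes 85.4% and 100% of the Treg-like bars.

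CD8 T-like cells fell into 10 sub-clusters, and the differences were seen within most of them. Gzmb was higher in the library labelled Lmo7-/- in 9 of 10, with a median log2 ratio of 0.82 and a range from -0.33 to 2.96. The summed chromosome 14 neighbours were higher in 8 of the 8 sub-clusters with at least 20 such UMIs, Prf1 was higher in 8 of 10 (median 0.53), and Gzmk was lower in the 2 where it could be measured. Both Gzmk intervals spanned 0 (-1.07, -2.18 to 0.02, and -0.96, -2.37 to 0.54), as did several of Prf1. For the neighbours the interval spanned 0 in the sub-cluster led by Rrm2 and Pclaf (0.22, -0.72 to 1.21). Below the limit of 20 UMIs, the neighbours gave 12 and 1 UMIs in the sub-cluster led by Cacnb3 and Ccl22. They gave 0 and 6 in that led by Ccr7, Xcl1 and Pacsin1. The sub-cluster with the highest granzyme levels, led by Gzmg, Gzme, Gzmd, Gzmf, Gzmc and the protease inhibitor gene Serpinb9b, held 11 of 273 cells (4.03%, 2.03% to 7.10%) and 35 of 432 (8.10%, 5.71% to 11.1%), whose intervals overlap. It held 36.6% and 33.8% of all UMIs of the 5 neighbours in CD8 T-like cells, but in the Lmo7+/+ library 178 of its 195 such UMIs, 160 of them Gzmf, were in 1 cell. Without that cell the share there was 4.79%, and the neighbours stood at 521 CPM (304 to 834). With all cells, Gzmb stood at 1385 and 4708 CPM, the 5 neighbours together at 5095 and 8533 CPM, and Prf1 at 1150 and 1197 CPM, while Gzmf stood at 4389 and 3409 CPM, or at 245 CPM in the Lmo7+/+ library without the 1 cell. Without this sub-cluster, the log2 ratio of the 5 neighbours over all CD8 T-like cells was 2.23 and that of Gzmb 0.85.

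Other sub-clusters showed the pattern unequally. In one led by Ccl3, a chemokine gene of activated T cells, the 5 neighbours together gave 5 UMIs in 24 cells of the Lmo7+/+ library (96.5 CPM) and 534 UMIs in 65 cells of the other (3535 CPM), with Prf1 at 714 and 1073 CPM. Of the 534 UMIs, 253 were in 1 cell, 148 of them Gzmf. In the one led by heat shock genes Hspa1a and Hspa1b the neighbours stood at 142 and 2535 CPM, and Gzma at 0 and 1399 CPM, with 132 of the 133 UMIs in 1 cell. Among dividing cells led by Ccna2 and Mki67, Gzmb stood at 1466 and 2170 CPM and the neighbours at 605 and 1662 CPM. The lowest Gzmb levels were in the sub-cluster led by Ccr7, Xcl1 and Pacsin1, where Gzmb stood at 100 and 343 CPM and the neighbours at 0 and 73.5 CPM. A sub-cluster led by Cacnb3 and Ccl22 (29 and 16 cells) was the exception for Gzmb, at 737 and 588 CPM, a log2 ratio of -0.33 (-0.98 to 0.30). The neighbours stood there at 111 and 19.6 CPM and Prf1 at 332 and 216 CPM. This sub-cluster made up 10.6% (7.23% to 14.9%) and 3.70% (2.13% to 5.95%) of CD8 T-like cells. Its leading genes Ccl22, Cacnb3 and Fscn1 are also known from mature dendritic cells and none of its first 10 is a CD8 T marker. Ccl22 was found in 2.22% of its 45 cells and Cacnb3 in 4.44%, and Fscn1 stood at 432 CPM, while Cd8a was found in 93.3%, at 1191 CPM against 1215 in the other CD8 T-like cells. Without it the log2 ratio over CD8 T-like cells was 0.96 for Gzmb and 1.98 for the 5 neighbours.

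**Figure D5:**
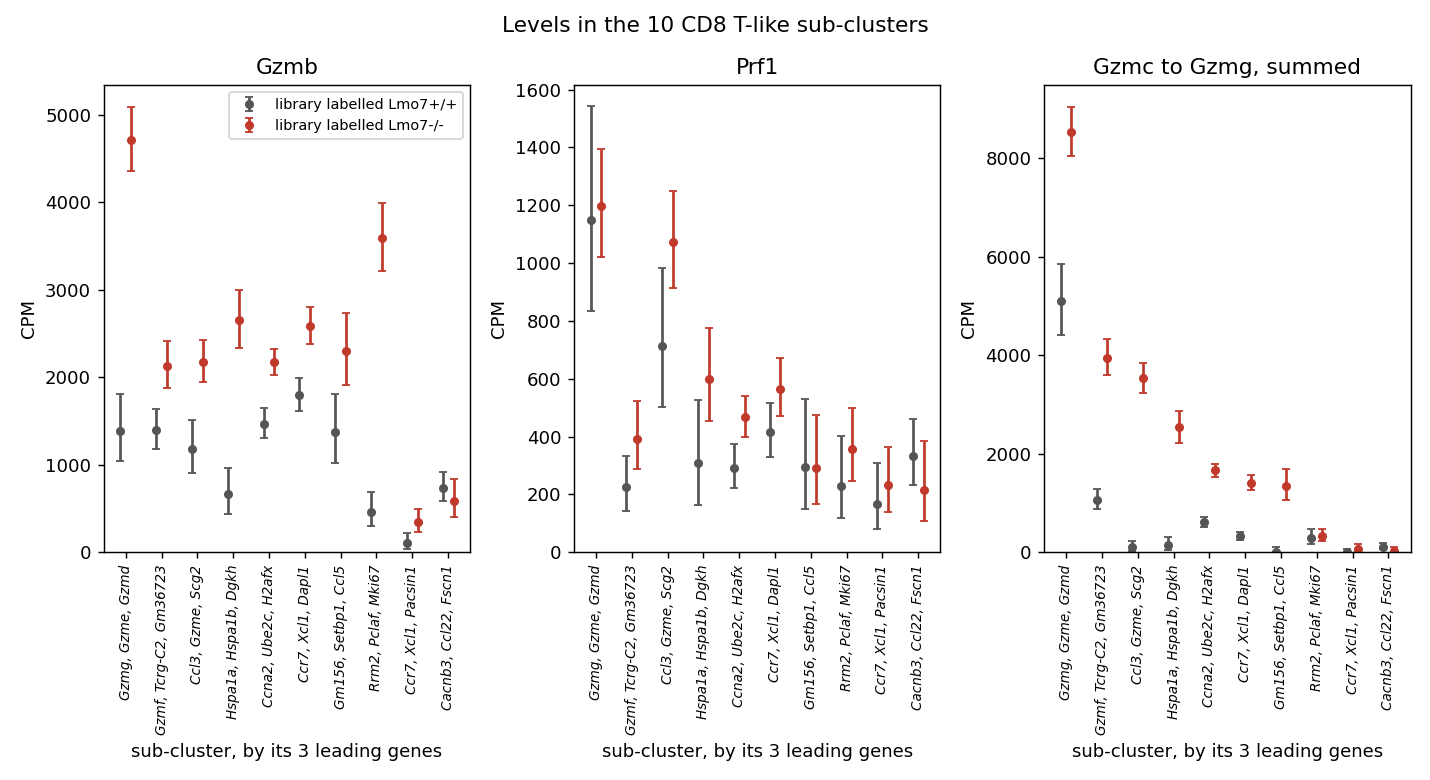
Levels in CPM of Gzmb, Prf1 and the sum of Gzmc, Gzmd, Gzme, Gzmf and Gzmg in the 10 CD8 T-like sub-clusters, 1 point per library with exact 95% Poisson intervals. The sum is highest in the sub-cluster led by Gzmg (5095, or 521 without 1 cell, and 8533) and is low in that led by Ccr7, Xcl1 and Pacsin1 (0 and 73.5).

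NK-like cells were set apart by Gzma. It gave 1076 UMIs in the Lmo7+/+ library (6421 CPM, 6043 to 6816) and 379 in the library labelled Lmo7-/- (3528 CPM, 3181 to 3901). The log2 ratio was -0.86 (-1.04 to -0.69), and Gzma was found in 75.3% and 54.0% of thinned cells. Its level was 175 times that of CD8 T-like cells in the first library and 22.4 times in the second, or 274 and 57.2 times without the CD8 T-like cell with most Gzma UMIs in each. Gzmc, at 3634 and 3220 CPM, had a log2 ratio of -0.17 (-0.37 to 0.02), and 292 of its 609 UMIs in the Lmo7+/+ library were in 1 cell. Without the highest cell of each library the log2 ratio was 0.27. Gzmd stood at 418 and 1145 CPM, with a log2 ratio of 1.45 (1.02 to 1.90), but 56 of the 70 and 100 of the 123 UMIs were in 1 cell of each library. Gzme, with 41 and 34 UMIs, had 40 of the 41 in 1 cell. Gzmf, in CD8 T-like cells the most abundant granzyme after Gzmb, gave 14 and 2 UMIs in NK-like cells, with 11 of the 14 in 1 cell. Its level in CD8 T-like cells was 4.73 times as high in the Lmo7+/+ library and, with the 2 UMIs set to 3 counts, 46.0 times in the other. In the Lmo7+/+ library the NK-like level of Gzmf was 0.211 times that of CD8 T-like cells. Without the CD8 T-like cell with most Gzmf UMIs it was 0.382 times, and without the highest cell of both classes 0.086 times. Of the 6 members with at least 20 counts in NK-like cells, 1 was at least 1.5-fold higher (Gzmd) and 1 lower (Gzma), against 12.3% and 12.7% of 2357 genes. Cells with 2 or more members made up 68.8% (57.3% to 78.9%) and 50.0% (35.5% to 64.5%) of thinned NK-like cells, and of those with Gzma, 67.2% and 63.0% also held Gzmb.

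Treg-like cells had Gzmb and little else. Gzmb was found in 49.2% (36.6% to 61.9%) and 67.5% (55.9% to 77.8%) of thinned cells, against 36.6% and 54.2% of CD8 T-like cells, yet Prf1 lay 11.9-fold and 6.67-fold below its level in CD8 T-like cells. Gzma gave 28 UMIs in the Lmo7+/+ library, in 1 cell, and 0 in the other, which is at least 11.1-fold lower when the 0 is set to the limit of 3 counts over the class. Gzmd, Gzme, Gzmf, Gzmg, Gzmk and Gzmm were at 0 in both libraries, and Gzmc gave 1 and 0 UMIs. Of the 3 members with at least 20 counts, Gzmb and Prf1 were at least 1.5-fold higher and Gzma lower, against 12.0% and 12.7% of 3209 genes.

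S1pr1 Tcf7 T cells carried Gzma and Gzmb with hardly any Prf1. Gzma stood at 1392 and 275 CPM (179 and 31 UMIs, log2 ratio -2.34, -2.94 to -1.78) and Gzmb at 2162 and 905 CPM (278 and 102 UMIs, log2 ratio -1.26, -1.60 to -0.92), both lower in the library labelled Lmo7-/-. Prf1 gave 5 and 7 UMIs and Gzmk 19 and 12 (148 and 107 CPM). Of the 3 members with at least 20 counts, 0 were 1.5-fold higher and 2 (Gzma and Gzmb) were lower, against 11.4% and 14.8% of 2137 genes. Both differences turned when these cells were grouped otherwise: at the doubled clustering resolution the log2 ratio was 1.63 for Gzma and 0.06 for Gzmb. No Gzmd, Gzme, Gzmf or Gzmg UMI was found in them, and Gzmc gave 1 UMI in each library.

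CD4 T-like cells held no Gzmb UMI in either library, which places them at least 22.2-fold and 62.5-fold below CD8 T-like cells when the 0 is set to 3 counts. The granzyme they did hold was Gzmc, with 3 UMIs among 22 cells (55.4 CPM) and 41 UMIs among 28 cells (536 CPM, 385 to 728), of which 21 were in 1 cell and all in 5. Prf1 gave 1 and 3 UMIs. Gamma delta T-like cells, only 10 and 2 in number, held 6 Gzmb UMIs in 2 cells of the Lmo7+/+ library and 0 UMIs of every other member, and with 2 cells no level could be set for the library labelled Lmo7-/-. Outside the lymphocytes, mast cells held Gzmb at 1944 and 1251 CPM (57 UMIs in 6 of 7 cells and 70 UMIs in 9 of 21). In each library 1 mast cell held much of it, 30 of the 57 and 23 of the 70 UMIs. Values in dendritic and endothelial cells came from a few cells: 41 of 42 Gzmb UMIs of endothelial cells in the library labelled Lmo7-/- were in 1 cell.

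The rest of the cytotoxic apparatus of CD8 T-like cells differed less between the libraries. Of 10 genes for granule cargo, processing and inhibitors, 1 was at least 1.5-fold higher, 1 lower, and the median log2 ratio was 0.09. The higher one was Serpinb9, an inhibitor of granzyme B, at 487 and 814 CPM (log2 ratio 0.74, 0.58 to 0.91), and the lower one Lamp1, a lysosome membrane gene, at 128 and 60.9 CPM (-1.07, -1.50 to -0.66). Srgn, the proteoglycan that packs granzymes, stood at 856 and 1122 CPM (0.39, 0.27 to 0.52), and Nkg7 at 1564 and 1745 CPM. Of 8 genes of granule release, 1 was higher (Vamp7, 0.79, -0.01 to 1.66) and 1 lower (Stxbp2, -0.95, -1.60 to -0.31), with a median of -0.10. Of 8 other effector genes, Ccl3 was the 1 past 1.5-fold (117 and 187 CPM, 0.68, 0.34 to 1.02), and Ifng stood at 137 and 165 CPM (0.27, -0.05 to 0.60), with a median of 0.29.

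None of 10 transcription factor genes known from cytotoxic lymphocytes, such as Tbx21 (172 and 148 CPM), Eomes (21.2 and 17.4 CPM) and Runx3 (380 and 356 CPM), was past 1.5-fold, and their median was -0.16. Of 7 exhaustion receptors and regulators 1 was higher, Havcr2 at 82.5 and 129 CPM (0.65, 0.25 to 1.06), Pdcd1 stood at 534 and 664 CPM (0.31, 0.15 to 0.48), and the median was 0.22. Of the 4 memory genes with at least 20 counts, of 7, Il7r was higher (98.1 and 172 CPM) and Klf2, with 18 UMIs in each library, past 1.5-fold in the lower direction with an interval that spans 0 (-0.62, -1.65 to 0.41). None of 8 proliferation genes was past 1.5-fold (median -0.10).

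Across 18 lymphocyte sub-clusters of at least 20 cells, the members did not move as 1 block. Pearson's r of log2(CPM + 10), both libraries pooled, was highest for Gzmd with Gzme (0.95), Gzmc with Gzme (0.82) and Gzme with Prf1 (0.77), and was 0.05 for Gzma with Prf1 and 0.12 for Gzmb with Gzmc. These 18 points share libraries and depth, and the near-identical ends of Gzmd and Gzme enter the first value, so they are a description only. The 18 include 4 sub-clusters set apart as mixed, whose macrophage or tumor RNA enters each r. Over the 14 others, chosen after seeing the data, r was 0.95 for Gzmd with Gzme, 0.80 for Gzmc with Gzme, 0.79 for Gzme with Prf1, 0.07 for Gzma with Prf1 and 0.076 for Gzmb with Gzmc. Over all 18 and among 6563 genes with at least 100 counts, those most like Prf1 were Irf8 (0.92), Klre1 (0.86) and Cst7 (0.84), and those most like Gzmb were Tuba4a (0.83), Glmn (0.81) and Ube2v1 (0.81). Those most like Gzmc were Serpinb9b (0.87), Gzme and Gzmd, and those most like Gzma were Nrarp (0.82), the NK cell receptor gene Klrb1c (0.77) and Zcchc10 (0.73). Gzmd and Gzme were most like each other, followed by Serpinb9 (0.81) and Rhoq (0.79) for Gzmd and by Serpinb9b (0.85) and Gzmc for Gzme. Gzmf was most like Rhoq (0.79), Gm36723 (0.77) and Magohb (0.77), and Gzmk was most like Mad2l1bp (0.85), Itga1 (0.74) and Ireb2 (0.73). Of the 24 genes named in this way, 11 were the same without the mixed sub-clusters, among them Irf8 and Cst7 for Prf1, Tuba4a for Gzmb, Serpinb9b for Gzmc, Nrarp for Gzma and Mad2l1bp for Gzmk, and none of the 3 for Gzmf.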

How the data were processed

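Tumors were dissociated, live cells were sorted and 2 droplet libraries were made, 1 per host genotype. The deposited values are UMI counts per gene and barcode; they were made by the authors, whose processing notes to the database name Cell Ranger 2.1.1 and mm10, with 1 library per genotype. The members and the gene lists were chosen with earlier results of these data known.

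From the counts, droplets were kept as cells from 500 genes and 1000 UMIs upwards if mitochondrial UMIs did not exceed 15% (Python 3.11.15, numpy 2.4.6, scipy 1.17.1, pandas 2.3.3). Clusters came from 2000 variable genes without the members, 30 principal components (scikit-learn 1.9.0), 20 neighbours and Louvain clustering (igraph 0.11.9) at resolution 0.5 for all cells and 4 for lymphocytes; the latter was set after seeing the data. Lymphocyte clusters were named from fixed markers, with further CPM limits for the class (Foxp3 200, Trdc 500, Ncr1 100, Cd8a and Cd8b1 summed 1000, Cd4 500, S1pr1 200 and Tcf7 100). Clusters with over 15% of another cell type's profile were set apart as mixed. Doublets marked by Scrublet (scanpy 1.11.5; 3.26% and 2.89% of cells) were kept.

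UMIs were summed per class and library and divided by the total of the class. CPM intervals are exact Poisson intervals, shares are exact Clopper-Pearson intervals and ratios, given for genes with at least 20 counts, come from the exact binomial split of the counts, all at 95% and for counting error only. Shares used cells thinned to 1000 UMIs. No test between genotypes was run, because 1 library per genotype leaves no replicate. The text names the 10 members, genes of the fixed lists, and for each member with at least 100 counts the 3 genes most correlated with it over sub-clusters of at least 20 cells. Counting and intervals were tested on simulated data. For the intervals, counts were drawn from class totals without cells, as the intervals assume, so UMIs gathered in single cells were not represented. Alternatives covered library size scaling (edgeR 4.0.16 TMM in R 4.3.3), weighting of cells, thinning, clustering, cell filters and doublets. Promoter windows were RefSeq sequences, aligned with Biopython 1.88; figures were drawn with matplotlib 3.10.9.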

Additional observations from a re-analysis of the deposited data

Results flagged for a closer look

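Gzma and Gzmb drew attention because their differences between the libraries pointed in opposite directions in different lymphocyte classes, with counting intervals on either side of 0. For Gzma the log2 ratio (library labelled Lmo7-/- over Lmo7+/+) was 2.10 in CD8 T-like cells, -0.86 in NK-like cells, -2.34 in S1pr1 Tcf7 T cells and at most -3.47 in Treg-like cells, where 1 cell of the Lmo7+/+ library held all UMIs and the 0 of the other library was set to 3 counts. For Gzmb it was 0.99 in CD8 T-like cells and 1.28 in Treg-like cells, against -0.56 in NK-like cells and -1.26 in S1pr1 Tcf7 T cells. These differences between classes were not tested, since each rests on 1 library per genotype, and the values in CD8 T-like cells (Gzma) and S1pr1 Tcf7 T cells (both genes) changed sign under other groupings of the cells.

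Droplets that failed the cell filter, which entered no comparison but the one with the lenient filter, also held members. Their summed level was 70.7 CPM (62.6 to 79.7) in 2666 droplets of the Lmo7+/+ library and 163 CPM (152 to 176) in 3303 droplets of the library labelled Lmo7-/-, with Gzmb at 127 and 340 UMIs and Prf1 at 16 and 61.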

How the results depend on the processing

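In CD8 T-like cells Gzmb, Prf1, Gzmk and the summed neighbours Gzmc, Gzmd, Gzme, Gzmf and Gzmg kept their direction under 17 alternatives, 4 of them chosen after seeing the data (leaving out the sub-cluster led by Gzmg or that led by Cacnb3, leaving out the cell with most UMIs of each gene, adding CD8 cells from mixed clusters). Among the 17, leaving out cells above 1% of UMIs in macrophage genes removed no CD8 T-like cell, so that setting could change nothing. Log2 ratios ranged from 0.65 to 0.78 for Prf1 and from -0.99 to -0.40 for Gzmk, and 7 or 8 members were higher. The Gzmb ratio was 1.14 as a mean over cells, 1.23 after thinning, 0.72 at doubled resolution, 0.89 with classes from each cell's UMIs, 0.78 with 20 principal components, 0.82 under the strict filter, 0.78 under the lenient filter, 0.85 without the sub-cluster led by Gzmg, 1.20 without the top cell and 1.10 with mixed cells. The ratio of the summed neighbours was 2.27 as a mean over cells, 1.94 at doubled resolution, 1.94 with classes from each cell's UMIs, 2.23 without the sub-cluster led by Gzmg, 2.55 without the top cell and 2.27 with mixed cells. Gzma in CD8 T-like cells reversed at doubled resolution (-0.33), with classes from each cell's UMIs (-1.22), with 20 principal components (-0.30) and under the strict (-0.44) and lenient (-0.47) filters. In S1pr1 Tcf7 T cells Gzma reversed at doubled resolution (1.63), with 20 principal components (0.66) and under the lenient filter (0.61), and Gzmb at doubled resolution (0.063). The causes were not tested. The strict filter left no such cells. Gzmb shares of CD8 T-like cells were 42.0% and 61.7% at 1500 UMIs (1 random draw) and 52.0% and 63.4% unthinned, and those of Prf1 30.3% and 49.0%, and 44.0% and 57.2%. With 50 counts and 2-fold, 0.474% of genes were higher and 0.632% lower. The class with the highest level was unchanged for 6 to 9 of 9 members. No paired analysis was possible because each genotype has 1 library. Gzmm and Gzmg rested on few UMIs, and the gamma delta T-like class on 10 and 2 cells.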
